A study of Mus musculus with 6 samples.

Results

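The Hox genes of the mouse fetal testis were examined at E12.5, in midgestation. They were taken as the rows of the deposited count table whose symbol is Hox followed by a, b, c or d and digits alone, which gave 39 of 24470 genes. These are 11 Hoxa, 10 Hoxb, 9 Hoxc and 9 Hoxd genes in 13 paralog groups, the sets of genes that share a position and a homeodomain type between clusters. Antisense, non-coding and microRNA rows in the clusters were not members and are described separately.

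RNA-seq was carried out on 6 samples, 3 control and 3 Ppp1r3c cKO (conditional knockout). Control testes were Ppp1r3c f/f and cKO testes were Sf1-Cre Ppp1r3c f/f, so both groups carried the floxed alleles and only the cKO group carried the Cre. The Cre is driven by Nr5a1 (Sf1) sequences and acts in the somatic cells of the gonad, including the progenitors of Sertoli cells, while the RNA came from whole testes. Both lines were kept on a C57BL/6 background, and each sample pooled 2 gonad pairs. The Ppp1r3c protein targets protein phosphatase 1 to glycogen and favours its synthesis, and the comparison addressed what its loss does to the testis transcriptome.

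Hox genes encode homeodomain transcription factors that give cells of the embryo their position along the body axis. They lie in 4 clusters, and within a cluster the genes at the 3′ end (low paralog numbers) are generally switched on earlier and further towards the head than those at the 5′ end (high numbers). In the urogenital region, members of the middle and 5′ groups pattern the intermediate mesoderm, the kidney and the reproductive ducts. Polycomb proteins keep silent Hox genes repressed, trithorax proteins maintain the active ones, and TALE homeodomain proteins (Pbx, Meis and Pknox) bind DNA together with Hox proteins.

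The clusters and their steepest change in expression are set out here first. In mm10 the Hoxa genes lie on the minus strand of chromosome 6. The Hoxb genes span chr11:96194361-96368253, the Hoxc genes chr15:102921131-103036852 and the Hoxd genes chr2:74668310-74765142, all on the plus strand. In the Hoxd cluster, 3 genes in 5′ order, with Hoxd11 between the last 2, covered the whole range of levels seen, from the most abundant Hox transcript (Hoxd9) through the last strongly expressed gene (Hoxd10) to a gene with almost no counts (Hoxd12). The 250 bases upstream of their start sites are shown for that reason, from the RefSeq promoter table (GRCm38.p6, the assembly behind mm10, plus strand, 5′ to 3′), with each CG dinucleotide in capitals.
Hoxd9 (chr2:74697513-74697762): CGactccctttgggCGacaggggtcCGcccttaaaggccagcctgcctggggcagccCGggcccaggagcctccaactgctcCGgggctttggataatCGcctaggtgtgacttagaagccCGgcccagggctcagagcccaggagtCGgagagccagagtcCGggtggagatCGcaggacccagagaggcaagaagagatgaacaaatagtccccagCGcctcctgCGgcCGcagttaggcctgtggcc
Hoxd10 (chr2:74691641-74691890): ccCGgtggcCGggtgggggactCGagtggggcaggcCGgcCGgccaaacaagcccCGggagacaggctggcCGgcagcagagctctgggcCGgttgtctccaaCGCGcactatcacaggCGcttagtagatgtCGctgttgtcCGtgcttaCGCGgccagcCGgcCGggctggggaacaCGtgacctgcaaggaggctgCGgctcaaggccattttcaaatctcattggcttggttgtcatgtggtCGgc
Hoxd12 (chr2:74674763-74675012): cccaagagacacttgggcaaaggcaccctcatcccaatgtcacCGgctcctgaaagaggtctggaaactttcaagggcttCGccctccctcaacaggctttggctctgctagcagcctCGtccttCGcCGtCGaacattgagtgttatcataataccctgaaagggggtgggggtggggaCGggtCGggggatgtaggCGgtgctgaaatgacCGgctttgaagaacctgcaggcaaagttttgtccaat

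The Hoxd9 window held 13 CG dinucleotides and 65.2% G and C bases, the Hoxd10 window 20 and 65.6%, and the Hoxd12 window 10 and 55.6%. Hoxd13, which had hardly any counts, held 31 CG dinucleotides, and Hoxd4, which was well expressed, held 3. The order of the promoters by CG number was therefore not the order of the genes by level. Of the 39 members, 22 matched the table, with 24 promoters. Their median G and C content was 58.6%. It was 52.4% over all 32851 promoters of this length. TATAAA, searched on both strands, occurred in 4 Hox promoters (16.7%) and in 12.4% of all promoters. TGATNNAT, a form of the site bound by Pbx and Hox proteins together, occurred on either strand in 4 Hox promoters (16.7%), those of Hoxa2, Hoxb1, Hoxb8 and 1 of the 2 Hoxd11 promoters, and in 7.68% of all promoters. These matches are descriptions of the windows and not binding sites.

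The clusters also encode microRNAs that are known to target Hox transcripts. The mature 5p forms of the miR-10 and miR-196 genes (RefSeq, GRCm38.p6, 5′ to 3′) are shown with the seed, bases 2 to 8, in capitals, because they fall into just 2 seed families.
miR-10a-5p (chr11:96317186-96317208, Hoxb cluster): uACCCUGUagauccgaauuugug
miR-10b-5p (chr2:74726074-74726096, Hoxd cluster): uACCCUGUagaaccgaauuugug
miR-196a-5p (chr11:96265187-96265208, Hoxb cluster, and chr15:102973365-102973386, Hoxc cluster): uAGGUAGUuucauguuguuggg
miR-196b-5p (chr6:52230129-52230150, minus strand, Hoxa cluster): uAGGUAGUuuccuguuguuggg

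The libraries were made from polyadenylated RNA, so mature microRNAs were not measured. Among the precursor rows, Mir196a-1 between Hoxb13 and Hoxb9 held 68 to 184 counts per library, with a log2 fold change of 0.09 (edgeR FDR 0.908, SE 0.231). Mir196a-2 had no count in any library, and Mir196b, Mir10a and Mir10b held at most 4 counts each.

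Library totals ranged from 16139487 counts (control replicate 1) to 44145158 counts (control replicate 2). The targeted gene was lower in every cKO library, at 24.4, 22.1 and 22.9 CPM (counts scaled by library total and TMM factor) in control and 4.71, 5.37 and 5.96 CPM in cKO (log2 fold change -2.11, SE 0.111, edgeR FDR 0.000126). Sertoli cell markers were abundant in all libraries, with a summed level of 1345 to 1905 CPM. Summed germ cell markers were at 398 to 643 CPM in control and 178 to 405 CPM in cKO, so the sums overlapped. All 6 of them had a negative log2 fold change at an unadjusted edgeR p under 0.05, against 5.8% of all tested genes. The groups did not overlap for 1 of the 6. Of these markers 0 were called by edgeR and 1 by DESeq2, against 0.0385% and 0.779% of all tested genes. A pair of cKO libraries stood apart. In cKO replicate 3, Xist was at 379 CPM, against at most 1 CPM in the other libraries, and the pre-granulosa markers summed to 130 CPM against 37.3 to 41.8 CPM. Whether this pool held XY testes only was not tested, and its group was kept as labelled. In cKO replicate 1, 46 genes with at least 30 counts there had more than 3 times the level of any other library. A small constant was added to each CPM for this ratio. The number was 27 in cKO replicate 3 and 0 in each of the other libraries. Among the 46 were Msln at 8.28 CPM against at most 0.520 CPM and Ankrd1 at 19.5 CPM against at most 0.815 CPM. These 2 were chosen after their values were seen. The fold changes of the named members are given also without the library that moved them most, or as the range over single libraries left out.

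Hox transcripts took a small and steady share of the libraries. Their counts summed to 514, 463 and 451 CPM in the control libraries and to 473, 510 and 484 CPM in the cKO libraries, so the groups overlapped. To compare genes, levels were divided by exon length and are given as RPKM (reads per kilobase of exon, scaled to the library total). A gene was termed expressed at an RPKM of at least 1 in every control library. This held for 21 of the 39 genes, 5 Hoxa, 4 Hoxb, 6 Hoxc and 6 Hoxd. The filter on low counts was passed by 30 genes. The 9 that did not pass were Hoxa13, Hoxb1, Hoxb13, Hoxc11, Hoxc12, Hoxc13, Hoxd1, Hoxd12 and Hoxd13, all from paralog group 1 or from groups 11 to 13.

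**Figure D1:**
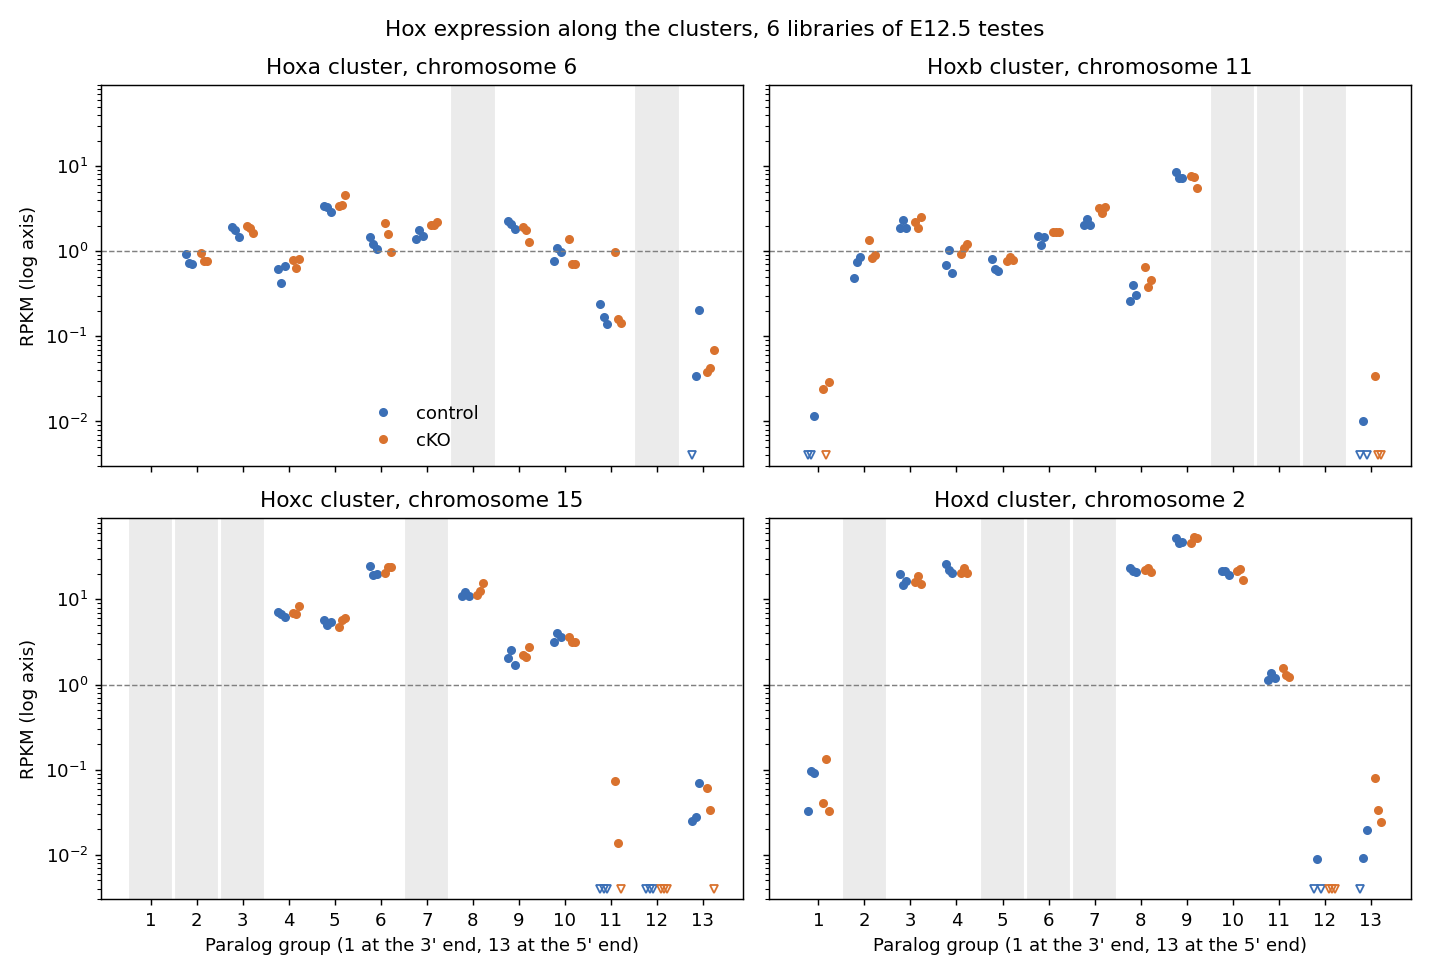
RPKM of each Hox gene (log axis) by paralog group, in 1 panel per cluster, with a point for each control (blue) and cKO (orange) library, for 38 of the 39 genes. Open triangles at the bottom are libraries with 0 counts, grey bands are paralog groups the cluster lacks, and the dashed line marks an RPKM of 1. Hoxd genes 3 to 10 sit at 14.7 to 53.4 RPKM, above all Hoxa and Hoxb genes, and the genes shown of groups 1, 12 and 13 lie below the dashed line.

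The Hoxd cluster supplied most of the Hox signal. Summed over genes, Hoxd accounted for 62.7% ± 0.926 (SD, n = 3) of the Hox RPKM in control testes, Hoxc for 23.9% ± 0.412, Hoxb for 7.42% ± 0.321 and Hoxa for 5.98% ± 0.229. The cKO means were 60.6% ± 2.08, 24.9% ± 2.30, 7.93% ± 0.731 and 6.53% ± 0.956, in the same order of clusters. Over all 6 libraries the Hoxd share lay between 58.7% and 63.5%. By paralog group, group 9 was highest in control, with 28.4% ± 0.566 of the Hox RPKM, followed by group 8 (16% ± 0.745), group 4 (14.6% ± 0.652), group 10 (12.1% ± 0.925), group 6 (11.3% ± 0.752) and group 3 (9.81% ± 0.680). Groups 12 and 13 together had no gene above 0.205 RPKM in any library.

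Within the Hoxd cluster a stretch of high levels ran from Hoxd3 to Hoxd10, with its peak at Hoxd9, and ended sharply on both sides. Hoxd9 (chr2:74697763-74700208), which acts in limb and trunk patterning, was the most abundant Hox transcript. Its level was 52.0, 45.4 and 47.3 RPKM in control and 45.8, 53.4 and 53.1 RPKM in cKO testes. All 6 values lay above those of every other Hox gene. Among the 15119 tested genes with an exon length, Hoxd9 ranked 1435th by its control mean, above 90.5% of them. It was 2.07 to 2.54 times as high as Hoxd8 on its 3′ side and 2.08 to 3.13 times as high as Hoxd10 on its 5′ side.

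Hoxd4 (chr2:74721978-74729160), a gene of the hindbrain and neck region in the early embryo, was at 26.4, 22 and 20.6 RPKM in control and 20.2, 23.1 and 20.4 RPKM in cKO. Hoxd8 was at 23.3, 21.5 and 21.2 RPKM in control and 22.1, 23.5 and 20.9 RPKM in cKO. Hoxd10 (chr2:74691891-74695106) was at 21.7, 21.8 and 19.2 RPKM in control and 21.6, 22.6 and 17.0 RPKM in cKO. These genes formed one level, since the control ranges of Hoxd4, Hoxd8, Hoxc6 and Hoxd10 overlapped from each to the next. Hoxd3 (chr2:74711993-74748271), the most 3′ Hoxd gene that passed the filter, was at 20.1, 14.7 and 16.3 RPKM in control and 16, 18.9 and 15.3 RPKM in cKO. Its range overlapped that of Hoxd10. Hoxd4 was higher than Hoxd3 in 6 of 6 libraries, and 1.73 to 2.11 times as high with the exons of all GENCODE transcripts. The annotated transcripts of Hoxd3 span Hoxd4 on the same strand over 7183 bases, so how reads were divided between these 2 genes is uncertain.

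The 5′ border of the stretch of high levels fell between Hoxd10 and Hoxd11, 5′ of the Hoxd9 and Hoxd10 promoters printed above. Hoxd11 (chr2:74679558-74687016), a gene of the forelimb and kidney, was at 1.13, 1.38 and 1.20 RPKM in control and 1.55, 1.30 and 1.24 RPKM in cKO. Hoxd10 was 13.7 to 19.3 times as high as Hoxd11 in the 6 libraries. Beyond it, Hoxd12 had 1 count in all libraries together and Hoxd13 had 16. At the 3′ end Hoxd1, separated from Hoxd3 by the stretch that holds Haglr, had 30 counts in all, against 10287 for Hoxd3. The expressed range of the Hoxd cluster thus ran from Hoxd3 to Hoxd11.

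The Hoxc cluster was expressed from Hoxc4 to Hoxc10. Hoxc6 (chr15:103009562-103011881), known from the thoracic region, was its highest gene, at 24.6, 19.4 and 20.0 RPKM in control and 20.3, 24.0 and 24.1 RPKM in cKO. It was 3.69 to 4.34 times as high as Hoxc5 and 1.56 to 2.23 times as high as Hoxc8, or 2.36 to 3.38 times with the exons of all GENCODE transcripts. Hoxc8 was at 10.9 to 12.3 RPKM in control and 11.3 to 15.5 RPKM in cKO, and Hoxc5 at 5.06 to 5.66 RPKM and 4.71 to 6.09 RPKM. The most 3′ gene, Hoxc4 (chr15:103034395-103036852), was at 7.05, 6.79 and 6.14 RPKM in control and 6.90, 6.77 and 8.46 RPKM in cKO. Hoxc10 (chr15:102966796-102971898), a gene of the lumbar and hindlimb level, was the last expressed gene on the 5′ side, at 3.16, 3.98 and 3.60 RPKM in control and 3.62, 3.16 and 3.17 RPKM in cKO. It lay above Hoxc9, which was at 1.67 to 2.75 RPKM, in 6 of 6 libraries.

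Past Hoxc10 the counts fell to almost none. Hoxc11 had 7 counts over all libraries, 6 of them in cKO replicate 1, and Hoxc13 had 20. Hoxc12 had 0 counts in every library, which allows up to 0.180 RPKM in the shallowest library and 0.0659 RPKM in the deepest (3 counts per library, counting error only). With 1410 counts of Hoxc10 over the 6 libraries, Hoxc10 was at least 254-fold higher than Hoxc12 per length (3 counts over all libraries). Hotair, the non-coding gene on the other strand between Hoxc12 and Hoxc11, had at most 1 count in a library.

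In the Hoxb cluster the highest level was at Hoxb9. Hoxb9 (chr11:96271330-96276595), which acts in thoracic patterning, was at 8.49, 7.17 and 7.18 RPKM in control and 7.67, 7.47 and 5.48 RPKM in cKO. It was the highest Hoxb gene in all 6 libraries and 11.8 to 33.0 times as high as Hoxb8 (chr11:96281905-96285325) beside it. Hoxb8 was at 0.257, 0.404 and 0.305 RPKM in control and 0.653, 0.380 and 0.459 RPKM in cKO, the lowest of the 8 Hoxb genes that passed the filter. Hoxb2 (chr11:96351632-96354016), a hindbrain gene and the most 3′ of these 8, was at 0.491, 0.751 and 0.854 RPKM in control and 1.35, 0.837 and 0.892 RPKM in cKO. Hoxb3, Hoxb6 and Hoxb7 were also expressed, while Hoxb4 and Hoxb5 stayed between 0.551 and 1.20 RPKM. Hoxb1 had 5 counts and Hoxb13 had 4 counts over all libraries.

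The Hoxa cluster was low throughout. Its highest gene was Hoxa5 (chr6:52201754-52204587), which patterns the neck and lung region, at 3.44, 3.28 and 2.90 RPKM in control and 3.36, 3.51 and 4.59 RPKM in cKO. Hoxa9 (chr6:52223097-52227370), a regulator of blood progenitors and of the reproductive ducts, was at 2.25, 2.11 and 1.84 RPKM in control and 1.95, 1.76 and 1.28 RPKM in cKO. Hoxa3, Hoxa6 and Hoxa7 completed the 5 expressed genes, and in cKO replicate 3 Hoxa6 was just below the threshold at 0.969 RPKM. The annotated transcripts of Hoxa3 overlap Hoxa4, Hoxa5 and Hoxa6 on the same strand, so counts of these genes are uncertain where they share exons.

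Hoxa10 and Hoxa11, known for their roles in the uterus, the vas deferens and the kidney, were low. Hoxa10 was at 0.703 to 1.40 RPKM over the 6 libraries. Hoxa11 (chr6:52242105-52245810) was at 0.242, 0.168 and 0.139 RPKM in control and 0.992, 0.158 and 0.145 RPKM in cKO. Its counts were 9, 17 and 13 in control and 91, 13 and 11 in cKO, so a single library carried the excess. Hoxa13 had 20 counts over all libraries, 11 of them in control replicate 3.

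Genes of one paralog group differed widely between clusters. Within group 9, Hoxd9 was 5.97 to 9.71 times as high as Hoxb9, 17.8 to 28.2 times as high as Hoxc9 and 21.5 to 41.4 times as high as Hoxa9. Within group 10, Hoxd10 was 5.33 to 7.16 times as high as Hoxc10 and 15.4 to 31.6 times as high as Hoxa10. Within group 4, Hoxd4 was 2.41 to 3.75 times as high as Hoxc4. In group 8, Hoxd8 was 1.35 to 2.12 times as high as Hoxc8, and 2.05 to 3.21 times with the exons of all GENCODE transcripts. In each of these pairs the Hoxd gene was higher in 6 of 6 libraries.

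No Hox gene was called between cKO and control testes at an adjusted p under 0.05. The lowest edgeR FDR of a member was 0.377 and the lowest DESeq2 adjusted p was 0.288, both for Hoxb7. Over all genes edgeR called 0.0385% of 15577 tested and DESeq2 called 0.779% of 14243. At an unadjusted edgeR p under 0.05, 2 of the 30 tested Hox genes were higher in cKO and 0 were lower, against 5.56% and 5.8% of all tested genes. The groups did not overlap for 3 members that were higher in cKO (Hoxa7, Hoxb6 and Hoxb7) and for 0 that were lower, where the shares over all tested genes were 8.42% and 7.18%. The 2 SE intervals of the log2 fold change lay within -1 to 1 for 25 of the 30 genes and within -0.5 to 0.5 for 14. In whole testes, fewer cells of a type and less RNA per cell cannot be told apart.

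The fitted differences were above 0 for more members than below 0. A total of 23 of the 30 log2 fold changes were positive and 7 negative, with a median of 0.14, while 49.1% of all tested genes had a positive value and their median was -0.0034. Several of the Hox signs changed when single libraries were left out, as listed at the end. The cluster medians were 0.27 for Hoxa, 0.39 for Hoxb, 0.13 for Hoxc and -0.0024 for Hoxd. The median over all members was 0.073 when control replicate 3 was left out and 0.22 when cKO replicate 2 was left out, the lowest and highest of the 6 values. Of the cluster medians, that of Hoxa fell to 0.0089 without cKO replicate 1, that of Hoxb stayed between 0.30 and 0.39, that of Hoxc lay between 0.04 (cKO replicate 3 left out) and 0.19 (cKO replicate 1 left out), and that of Hoxd took both signs, from -0.07 to 0.07, when single libraries were left out.

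**Figure D2:**
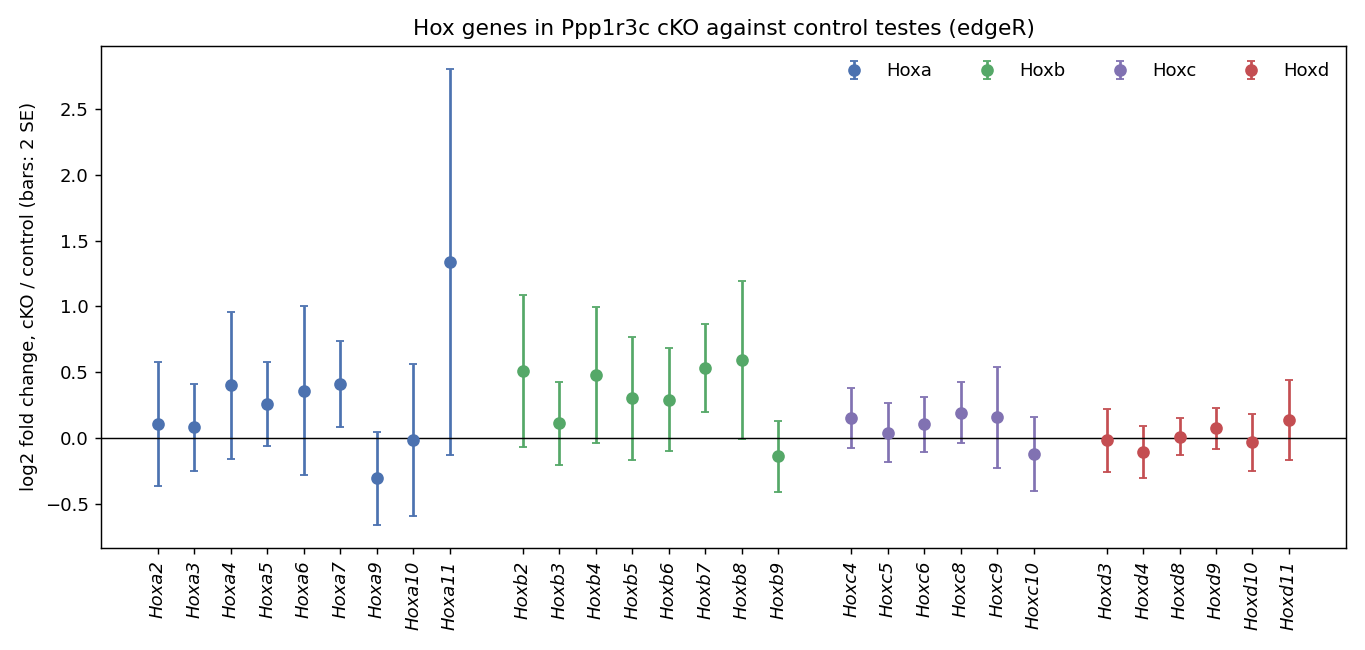
Log2 fold change of cKO against control for 29 of the 30 Hox genes that passed the filter, in cluster order, with bars of 2 SE from the edgeR fit. The well expressed Hoxd genes sit close to 0 with short bars, the Hoxb values are mostly above 0, and Hoxa11 at 1.34 has the widest interval.

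The group 7 genes had the lowest p-values. Hoxb7 (chr11:96286646-96290163), a gene of the thoracic region, was at 2.05, 2.38 and 2.02 RPKM in control and 3.22, 2.84 and 3.30 RPKM in cKO. Every cKO library lay above every control library. Its log2 fold change was 0.53 (SE 0.168, unadjusted edgeR p 0.0109, FDR 0.377), and it lay between 0.47 and 0.61 when single libraries were left out. Hoxa7 (chr6:52215623-52218573) was at 1.41, 1.79 and 1.49 RPKM in control and 2.06, 2.02 and 2.21 RPKM in cKO. These groups did not overlap either. Its log2 fold change was 0.41 (SE 0.165, unadjusted edgeR p 0.0335, FDR 0.409), with 0.35 to 0.52 on leaving out single libraries. There is no Hoxc7 or Hoxd7 in the mouse, so these are all members of group 7. Both had positive values, and neither passed the adjusted threshold.

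Beside them, Hoxb6 (chr11:96299171-96301569) was at 1.49, 1.20 and 1.46 RPKM in control and 1.68, 1.68 and 1.67 RPKM in cKO. The groups were apart, with the cKO values close together. Its log2 fold change was 0.29 (edgeR FDR 0.590, SE 0.196), and 0.18 without control replicate 2. Hoxb8, for which all cKO libraries but replicate 2 lay above the control range, had a log2 fold change of 0.59 (edgeR FDR 0.481, SE 0.300), and 0.34 without cKO replicate 1, its highest library. The ratio of Hoxb9 to Hoxb7, a pair chosen after their values were seen, was 3.01 to 4.14 in control libraries and 1.66 to 2.63 in cKO libraries. Both genes are among the members of lowest p, in opposite directions, so this separation is not a further result.

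The members with the lowest p among those that were lower in cKO were Hoxa9, Hoxd4 and Hoxb9. Hoxa9 had a log2 fold change of -0.31 (edgeR FDR 0.533, SE 0.177). Its groups overlapped, and its lowest value was that of cKO replicate 3, without which the log2 fold change was -0.15. Hoxb9 had a log2 fold change of -0.14 (edgeR FDR 0.713, SE 0.134), which was 0.00081 without cKO replicate 3. Hoxd4 had a log2 fold change of -0.11 (edgeR FDR 0.700, SE 0.0980), which was -0.00097 without control replicate 1.

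For the strongly expressed genes the intervals were narrow. The log2 fold change of Hoxd9 was 0.08, with a 2 SE interval of -0.08 to 0.23, and that of Hoxd8 was 0.01, with an interval of -0.13 to 0.15. For Hoxd10 the interval was -0.25 to 0.18, for Hoxd3 -0.26 to 0.22 and for Hoxc6 -0.10 to 0.32. When single libraries were left out, these 5 log2 fold changes stayed between -0.12 and 0.21. At the borders of the expressed ranges, Hoxd11 had a log2 fold change of 0.14 (edgeR FDR 0.757, SE 0.152), Hoxc10 -0.12 (SE 0.140, edgeR FDR 0.771) and Hoxc4 0.15 (SE 0.114, edgeR FDR 0.630). Hoxd11 was at 0.03 without cKO replicate 1, Hoxc10 at -0.04 without control replicate 2 and Hoxc4 at 0.04 without cKO replicate 3. Hoxb2 had 0.51 (SE 0.288, edgeR FDR 0.523), which was 0.26 without cKO replicate 1. Hoxa5 had 0.26 (SE 0.159, edgeR FDR 0.560), which was 0.11 without cKO replicate 3.

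The largest fitted value belonged to a single library. Hoxa11 had a log2 fold change of 1.34 (edgeR FDR 0.512, SE 0.733), and without cKO replicate 1 it was -0.19. Hoxa11os is the antisense gene that overlaps it over 568 bases, and the counting used strand. It had 24 counts in that library and 7 to 11 in the others. Scaling by depth left a smaller gap, 0.598 CPM against 0.492 CPM for control replicate 1, the shallowest library. The remaining libraries had 0.195 to 0.302 CPM. Hoxa11 was the 1 member among the 46 genes that stood out in cKO replicate 1. That library also held 6 of the 7 counts of Hoxc11, 3 of the 4 of Hoxb13 and 8 of the 16 of Hoxd13. Of the other 5′ genes, Hoxa10 was also highest in cKO replicate 1, at 1.40 RPKM against at most 1.09 RPKM. So was Hoxd11, at 1.55 RPKM against at most 1.38 RPKM. Hoxc10, Hoxd10, Hoxa13 and Hoxc13 were highest in other libraries. Hoxa13 had 2 counts in cKO replicate 1 and 11 in control replicate 3, Hoxc13 had 6 and 7, and Hoxd12 had 0 in cKO replicate 1. The part of the other genes of cKO replicate 1 in these values was not tested.

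**Figure D3:**
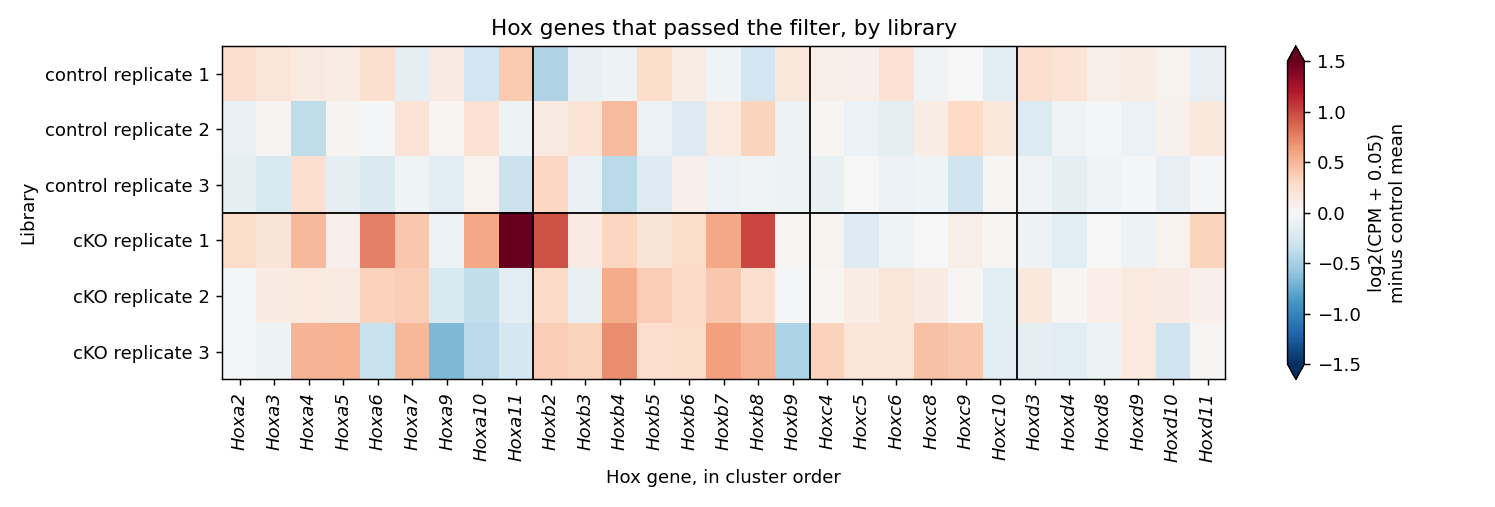
Difference of log2(CPM + 0.05) from the control mean for 29 of the 30 tested Hox genes (columns, in cluster order) in each library (rows), with red above and blue below the control mean and colours ending at 1.5 on either side. Hoxa7, Hoxb6 and Hoxb7 are redder in each cKO row than in any control row, and the Hoxa11 value of cKO replicate 1 lies beyond the end of the scale.

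The libraries did not contribute evenly. Of the 30 tested members, 10 had their highest level in cKO replicate 3, 9 in cKO replicate 1, 5 in cKO replicate 2, 5 in control replicate 1, 1 in control replicate 2 and 0 in control replicate 3. Over all tested genes the shares highest in these libraries were 19.0%, 11.3%, 16.2%, 17.0%, 18.4% and 18.1%, in the same order. Control replicate 3 had the lowest level for 10 members and for 19.3% of all tested genes. In cKO replicate 3, the library with Xist, the members split by gene. Besides the 10 at their highest there, 6 were at their lowest, against 14.6% of all tested genes. Hoxa5, Hoxc4 and Hoxc8 were among the highest, and Hoxa9, Hoxb9 and Hoxd10 among the lowest. Of 10 markers of the mesonephros, the embryonic kidney beside the gonad, 5 passed the filter, and the 10 summed to 21.5 to 29.6 CPM in control and to 29.3, 20.0 and 40.1 CPM in the cKO libraries, where the highest was again replicate 3. Of these 5, Pax2 (log2 fold change 0.78), Pax8 (0.52) and Calb1 (2.14) were higher in cKO without overlap at an unadjusted edgeR p under 0.05, Lhx1 (-0.78) and Ret (-0.08) had negative values, and none was called (lowest edgeR FDR 0.377). Among the others, Cdh16, Wnt9b, Sim1 and Wnt7a were at or below 0.293 CPM in every library. Interstitial markers summed to 1534 to 1778 CPM in control and 1602 to 1875 CPM in cKO. Over the 6 libraries, summed markers were at 165 to 443 CPM for Leydig cells, 514 to 590 CPM for endothelium, 28.8 to 33.2 CPM for macrophages, 7.07 to 8.34 CPM for adrenal cells and 7.90 to 9.55 CPM for neural cells, with overlapping groups in each. The part of these cells, and of the germ cells, in the Hox values was not tested. Without cKO replicate 3 the Hox median was 0.13, and 0 members were called by edgeR or DESeq2.

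The genes that act with or on Hox genes showed no called member. All 9 TALE cofactors were tested, 7 with a positive and 2 with a negative log2 fold change and a median of 0.06. Meis1, the cofactor that binds next to Pbx and Hox proteins, was at 84.6, 87.7 and 79.6 CPM in control and 92.2, 94.9 and 106 CPM in cKO. The groups did not overlap, with a log2 fold change of 0.22 (edgeR FDR 0.377, SE 0.0694). Of 6 upstream regulators, 4 were tested, 2 in each direction, as Cdx2 and Cdx4 did not pass the filter. Gmnn, which encodes geminin, an inhibitor of DNA replication licensing that also binds Hox proteins, was at 49.7, 54.4 and 52.1 CPM in control and 46.7, 39.5 and 39.6 CPM in cKO. All cKO values lay below the control values (log2 fold change -0.31, SE 0.0808, edgeR FDR 0.377).

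Among 12 trithorax and activator genes, 3 had positive and 9 negative values, with a median of -0.07. Kdm6b, a demethylase that removes the Polycomb mark from histone H3, was at 118, 107 and 118 CPM in control and 126, 139 and 138 CPM in cKO, without overlap (log2 fold change 0.23, SE 0.0641, edgeR FDR 0.377). Among 31 Polycomb genes, 11 had positive and 20 negative values, with a median of -0.03. Phc1, a subunit of Polycomb repressive complex 1, was at 128, 140 and 146 CPM in control and 124, 107 and 122 CPM in cKO, also without overlap (log2 fold change -0.23, SE 0.0729, edgeR FDR 0.377). At an unadjusted edgeR p under 0.05 these lists held 2 cofactors, 2 upstream regulators, 3 trithorax genes and 6 Polycomb genes, against 11.4% of all tested genes, and DESeq2 called 0 in each list.

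**Figure D4:**
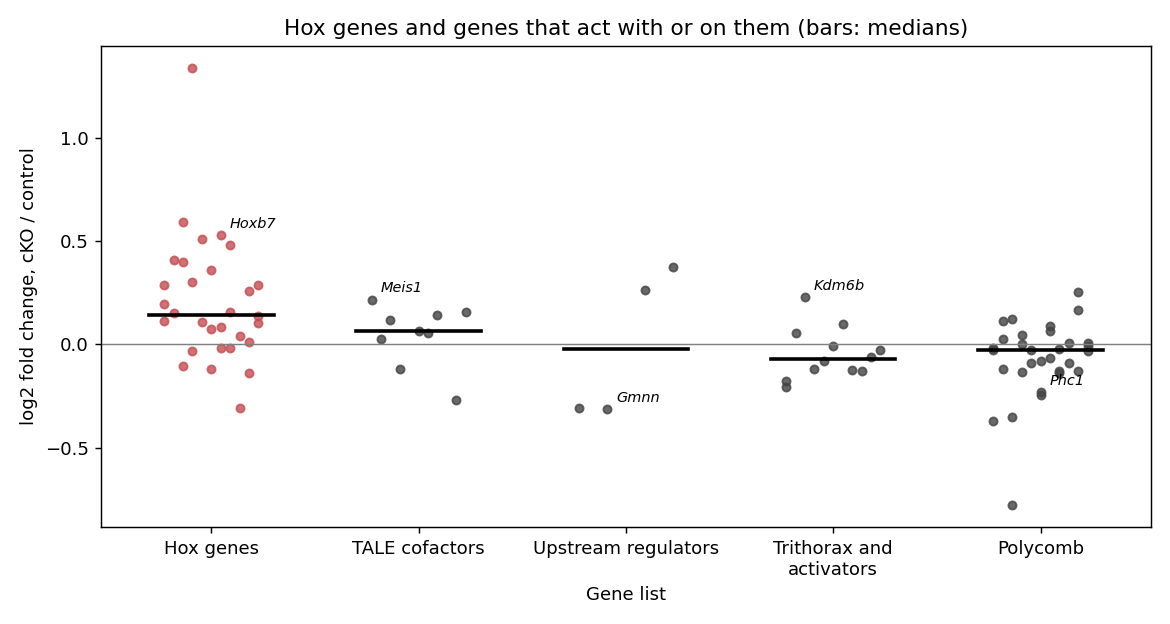
Log2 fold change of cKO against control for the tested Hox genes (red) and for TALE cofactors, upstream regulators, trithorax and activator genes and Polycomb genes (grey), with a bar at each median and the gene of lowest p named. The Hox median is 0.14 and the others lie between -0.07 and 0.06.

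The chromosomal surroundings were described in the same way. Within 1 Mb of the clusters, and between the Hox genes, 100 other genes were tested, and edgeR and DESeq2 called 0 of them. At an unadjusted edgeR p under 0.05 there were 12, near the share of 11.4% over all tested genes. The gene of lowest p beside the Hoxa cluster was Evx1, a homeobox gene that adjoins its 5′ end, at 1.60, 1.63 and 2.20 CPM in control and 1.40, 0.751 and 0.847 CPM in cKO, without overlap (log2 fold change -0.86, SE 0.294, edgeR FDR 0.380). Beside the Hoxc cluster it was Amhr2, the receptor of anti-Müllerian hormone, with a log2 fold change of 0.34 (edgeR FDR 0.377, SE 0.110). Beside the Hoxb cluster it was Gpr179 (log2 fold change 0.56, SE 0.167, edgeR FDR 0.377). Beside the Hoxd cluster it was Nfe2l2 (log2 fold change 0.12, SE 0.0752, edgeR FDR 0.548). Evx2, which adjoins Hoxd13, had at most 2 counts per library, while Hoxd12 had at most 1 and Hoxd13 at most 8. Of the non-coding rows, Mira, beside Hoxa7, held 65 to 205 counts and had a log2 fold change of 0.34 (edgeR FDR 0.476, SE 0.170), and Hotairm1 held 13 to 51 counts. Hottip, at the 5′ end of the Hoxa cluster, had at most 1 count, like Hotair.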

How the data were processed

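Poly(A) RNA of whole E12.5 testes was sequenced in 3 control and 3 cKO samples. Per the labels and the study's methods, the authors aligned stranded read pairs to mm10 with STAR (version 2.5) and assigned reads to RefSeq genes with featureCounts (Subread 1.5.0-p1), and the deposited values were raw counts. Nothing says whether replicates came from separate litters, so p-values measure the spread between these pools.

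Genes were tested with edgeR 4.0.16 in R 4.3.3 (filterByExpr, minimum count 10, 15577 genes kept, TMM, quasi-likelihood F-test, no covariates), with Benjamini-Hochberg adjustment (FDR) over all tested genes and a threshold of 0.05. The SE was derived from the F statistic. RPKM used TMM-scaled totals and the exon length of GENCODE M21 transcripts with a RefSeq accession, since the deposited table held no lengths as had been planned. Scripts were tested on simulated data.

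The members, lists and tests were chosen with earlier results of these data known. Named in full were, per cluster, the Hox gene of highest RPKM and the first and last that passed the filter, the 3 of lowest p in each direction, any called or without overlap, Ppp1r3c and, per list, the gene of lowest p. Others, such as Hoxa10, Hoxc8, Hoxd8, Hoxd10 and the non-coding rows, were chosen after their values were seen. Alternatives were DESeq2 1.42.0, limma-voom (limma 3.58.1), RLE size factors, no filter or a stricter one (1 CPM or more in 3 samples), a replicate block, single samples left out and RPKM thresholds of 0.5 and 2. DESeq2 without single samples and the exons of all GENCODE transcripts were added after the data were seen. Values of 1 member are not reported here.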

Additional observations from a re-analysis of the deposited data

How the results depend on the processing

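With 3 samples a group, an exact permutation test of 1 value cannot give a p below 0.1, and genes under about 100 counts carried wide errors. No member, no cofactor, upstream or chromatin gene and no neighbouring gene was called by edgeR under any alternative run, and no member by DESeq2, also without single samples. The Hox median log2 fold change was 0.14 and lay between 0.12 and 0.15 under the other tests, scalings and filters, and between 0.073 and 0.22 when single samples were left out. The number of expressed genes was 21, and it was 13 at an RPKM of at least 2, 25 at 0.5 and 20 with the exons of all GENCODE transcripts. Some of the genes named in full changed sign. Hoxd3, at -0.02, was 0.0195 with limma-voom and 0.11, 0.01 and 0.05 without control replicate 1, cKO replicate 1 and cKO replicate 3 (range -0.12 to 0.11). Without cKO replicate 1, Hoxa11 was -0.19 (range -0.19 to 1.74). Hoxb9 was 0.00081 without cKO replicate 3 (range -0.22 to 0.00081). Among the other members, Hoxa2, Hoxa3, Hoxa10, Hoxb3, Hoxc5, Hoxd8 and Hoxd10 also took both signs when single samples were left out, within -0.43 to 0.22. None of these values was called, and the cause was not tested. Same-numbered samples did not deviate together (correlations -0.20, -0.27 and -0.13), so no pairing by number was seen. These 3 values cannot decide whether samples shared a litter or batch, which was not tested. With the replicate number as a block the Hox median was 0.12 and 0 members were called.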
